A study of Mus musculus with 2 samples.

Results

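CC chemokines are small secreted proteins, named for a pair of adjacent cysteines, that attract leukocytes through G protein-coupled receptors. This account follows 7 of them that epithelium can make, Ccl2, Ccl5, Ccl7, Ccl8, Ccl20, Ccl25 and Ccl28, in organoids of the mouse fallopian tube (oviduct) epithelium. They were taken by gene symbol from a list of 7, and all 7 had a row among the 25668 gene symbols of both libraries. The samples were 1 control library labelled WT and 1 library labelled Trp53 KO, in which Trp53, the gene of the tumour suppressor p53, had been knocked out. The control organoids came from a mouse line, named with a B6J background, that carries cas9 and EGFP behind the ubiquitous CAG promoter at Gt(ROSA)26Sor, and both libraries carry the treatment label conditioned medium. The labels used here give no age, no number of animals, no guide sequence and no statement of whether the knockout organoids were 1 clone or a pool. With 1 library in each group there is no test between genotypes, no SD and no replicate check, and each difference compares these 2 libraries.

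CC chemokines act in groups set by their receptors. Ccl2 and Ccl7 draw monocytes through Ccr2, while Ccl5 draws T cells, natural killer cells and monocytes. Ccl20, the ligand of Ccr6, Ccl25, the ligand of Ccr9, and Ccl28, a ligand of Ccr10, are made by epithelia of mucosal surfaces and guide dendritic cells, lymphocytes and antibody-secreting cells to them. Many of these genes are switched on in epithelium by tumour necrosis factor, interleukin 1 or interleukin 17 through NF-kB, and some by interferons.

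The values are TPM, a measure per gene length whose total is equal in each library, so levels can be compared between genes. Read numbers recovered from the TPM summed to an estimated 100099420 in control organoids and 27688213 in knockout organoids, so 1 read at a length of 1000 bases was worth 0.0168 and 0.0565 TPM. Trp53 was 83.2 TPM in control organoids and 2.42 TPM in knockout organoids. Among genes with a mean of at least 1 TPM, 11228 in all, 15.3% were lower and 8.35% higher by 2-fold or more in knockout organoids on the log2(TPM + 1) scale, and the median difference was −0.17. Rescaling by the median ratio moved that median to −0.0090, while after quantile normalization it was 0.03, with 1321 lower and 1292 higher genes in place of 1715 and 937. A pseudocount of 1 makes the difference smaller than the plain ratio where levels are low. In bulk RNA, fewer cells of a type and less RNA per cell cannot be told apart.

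The chemokines with high levels in control organoids were far lower in knockout organoids. The 7 genes summed to 3593 TPM in control organoids and 92.5 TPM in knockout organoids, a ratio of 38.9. Of the 7, 5 had a mean of at least 1 TPM, and 4 of these (Ccl2, Ccl7, Ccl20 and Ccl28) were lower and 0 higher by 2-fold or more, beside 15.3% and 8.35% of all genes. Ccl2 and Ccl7 passed that minimum only through the control library. Without the minimum, Ccl8 was also beyond 2-fold, which makes 5 of 7 lower and 0 higher, beside 11.5% lower and 5.93% higher of the 16534 genes above 0 in either library. Ccl8 and Ccl5 lay just below the minimum, with means of 0.970 and 0.847 TPM, and Ccl25 just above it, with 1.74 TPM. The median difference over all 7 was −4.69. All intervals below are exact 95% intervals from read numbers and cover counting error only. The libraries were paired-end, and whether the recovered unit is a read or a fragment of 2 reads is not given in the sources. If both reads of a pair were counted, the intervals are too narrow.

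**Figure D1:**
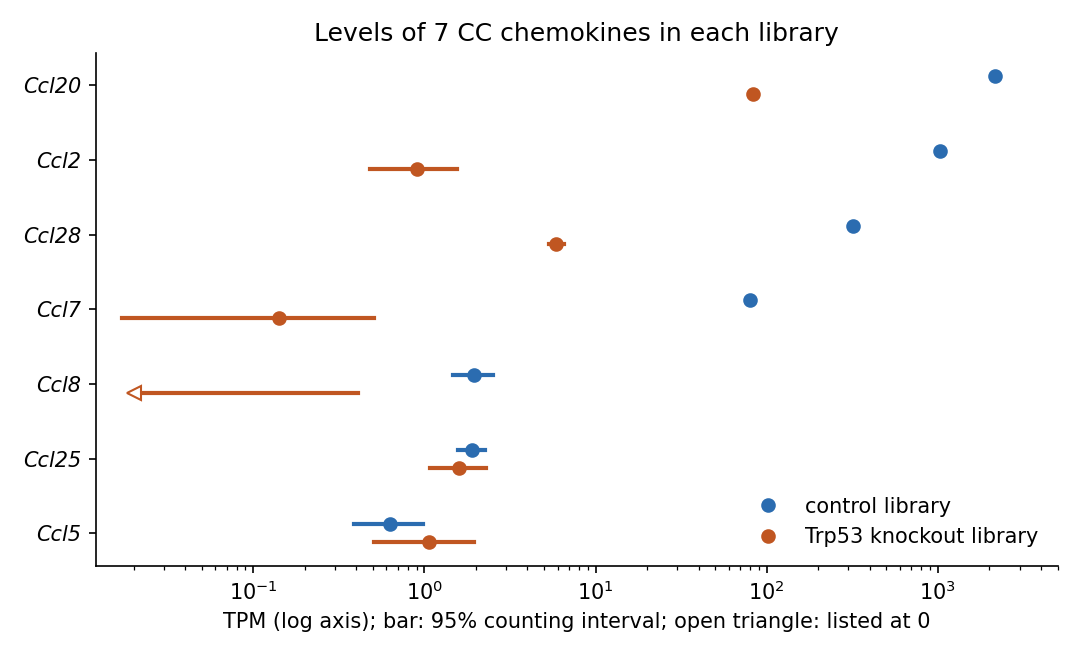
TPM of each of the 7 CC chemokines in control organoids and the Trp53 knockout library, on a log axis, with 95% counting intervals as bars and a library listed at 0 as an open triangle. Ccl20, Ccl2, Ccl28 and Ccl7 stand at 79.9 to 2158 TPM in control organoids and at 0.141 to 82.9 TPM in knockout organoids, while the intervals of Ccl25 and Ccl5 overlap between libraries.

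Ccl2, the main attractant of monocytes, was 1030 TPM in control organoids and 0.904 TPM in knockout organoids. These values stand for 49854 and 13 reads, a control to knockout ratio of 1140 with an interval of 666 to 2140. In control organoids Ccl2 ranked 155th from the highest of all 25668 genes, and in knockout organoids 10623rd. Its difference of −9.08 was the lowest of the 11228 genes. Its rank from the lowest was 5 with a pseudocount of 0.1, 2 with a pseudocount of 5, and 1 under the other 6 alternatives.

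Ccl7, which shares the receptor Ccr2 with Ccl2, was 79.9 TPM in control organoids and 0.141 TPM in knockout organoids. The knockout value rests on 2 reads, against 3809 in control organoids, and the ratio of 566 had an interval of 157 to 4675. In both libraries Ccl7 was below Ccl2, at 2.22% and 0.153% of the sum over the 7 genes against 28.7% and 0.978%. The intervals of the ratios of Ccl2 and Ccl7 overlap, so these reads do not separate the size of the difference in one gene from that in the other.

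Ccl8 was 1.94 TPM from 59 reads in control organoids and listed at 0 in knockout organoids. Against a floor of 3 reads in knockout organoids, which is 0.332 TPM for this gene, it was 5.84-fold lower, and the exact interval begins at 4.61-fold. The control level of Ccl8 was far below those of Ccl2 and Ccl7. Its difference on the log2(TPM + 1) scale, −1.56, depends on the pseudocount, and was −4.35 with 0.1 and −0.47 with 5.

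Ccl5 was the only one of the 7 with a higher value in knockout organoids under the scaling as deposited. It was 0.632 TPM from 20 reads in control organoids and 1.06 TPM from 10 reads in knockout organoids, a knockout to control ratio of 1.68 with an interval of 0.703 to 3.77. The interval includes 1, so the direction was not resolved at this depth. The value thus rests on few reads in both libraries.

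Ccl20, which draws dendritic cells and T helper 17 cells to mucosa, had the highest TPM of the 7 in both libraries. It was 2158 TPM from 182528 reads in control organoids and 82.9 TPM from 2083 reads in knockout organoids. The control to knockout ratio was 26.0 with an interval of 24.9 to 27.2. Although this was 26.0-fold lower, Ccl20 made up 60.1% of the sum over the 7 genes in control organoids and 89.6% in knockout organoids. It ranked 78th from the highest of all genes in control organoids and 1494th in knockout organoids.

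Ccl28, the ligand of Ccr10 and Ccr3 that draws antibody-secreting cells to mucosa, was 320.5 TPM in control organoids and 5.91 TPM in knockout organoids. The ratio was 54.2 with an interval of 49.1 to 60.05, from 71351 and 391 reads. The intervals of the ratios of Ccl28 and Ccl20 do not overlap, and those of Ccl2 and Ccl7 lie above both. Among the 4 genes at least 2-fold lower, the ratio thus ran from 26.0 for Ccl20 through 54.2 for Ccl28 to 566 for Ccl7 and 1140 for Ccl2, and the last 2 are not separated from each other.

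Ccl25, the chemokine of the thymus and the small intestine, was 1.89 TPM in control organoids and 1.59 TPM in knockout organoids, from an estimated 119 and 30 reads. The knockout to control ratio of 0.841 had an interval of 0.549 to 1.28. Its difference of −0.16 was close to the median of all genes, −0.17, and turned to 0.29 under quantile normalization. A ratio of the size seen in Ccl20 lies far outside this interval.

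The order of levels differed between the libraries. In control organoids it was Ccl20, Ccl2, Ccl28, Ccl7, Ccl8, Ccl25 and Ccl5, and the only neighbours whose counting intervals overlapped were Ccl8 and Ccl25. In knockout organoids it was Ccl20, Ccl28, Ccl25, Ccl5, Ccl2, Ccl7 and Ccl8. There the intervals of Ccl20, Ccl28 and Ccl25 were apart, whereas every pair of neighbours from Ccl25 downwards overlapped. Farther apart in that order, the interval of Ccl25 lay above those of Ccl7 and Ccl8, and those of Ccl5 and Ccl2 above that of Ccl8. Ccl2 thus stood second in control organoids, and in knockout organoids its interval overlapped those of Ccl25, Ccl5 and Ccl7.

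**Figure D2:**
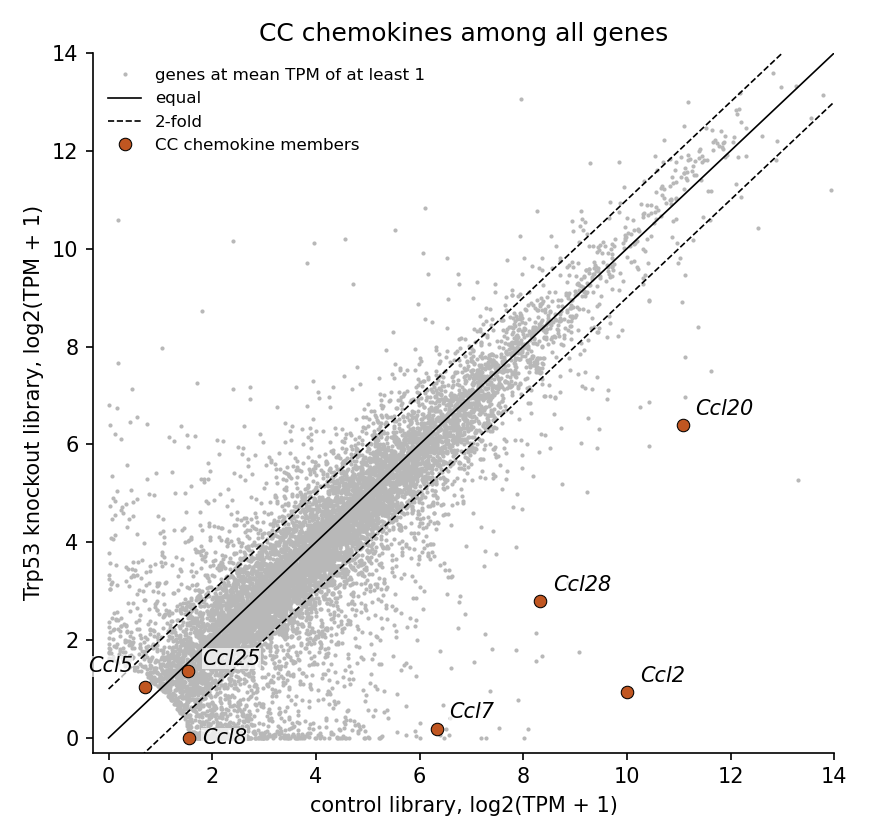
log2(TPM + 1) in control organoids (horizontal axis) against the Trp53 knockout library (vertical axis), with grey points for the 11228 genes at a mean of at least 1 TPM, orange points for the 7 CC chemokines, a solid line for equal values and dashed lines at 2-fold. Ccl2, Ccl7, Ccl20 and Ccl28 lie far below the lower dashed line, Ccl8 lies on the bottom edge, and Ccl25 and Ccl5 lie between the dashed lines.

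Sequence before the start sites is shown for the members that have an entry in the RefSeq promoter table, to set the genes with large differences beside Ccl25. Of the 7 genes, 4 had an entry: Ccl8, Ccl20, Ccl25 (with 2 start sites) and Ccl28. The windows are the 250 bases before the start on the plus strand, in GRCm38.p6, an earlier build than the GRCm39 named in the submitters' processing notes, so the coordinates are those of the table only. Capitals mark matches, on either strand, to 5 motifs: the NF-kB consensus, the core of the interferon-stimulated response element (ISRE), the AP-1 site TGANTCA, the TATA box TATAAA and the p53 decamer. For Ccl25 the downstream start site is shown. The windows lie at chr1:83116516-83116765 for Ccl20, chr13:119623569-119623818 for Ccl28, chr11:82114935-82115184 for Ccl8 and chr8:4349338-4349587 for Ccl25.
Ccl20: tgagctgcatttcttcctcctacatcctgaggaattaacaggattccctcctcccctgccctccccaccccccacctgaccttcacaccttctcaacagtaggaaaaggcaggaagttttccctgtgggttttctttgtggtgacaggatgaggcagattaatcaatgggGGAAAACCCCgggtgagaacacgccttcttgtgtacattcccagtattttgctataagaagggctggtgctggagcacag
Ccl28: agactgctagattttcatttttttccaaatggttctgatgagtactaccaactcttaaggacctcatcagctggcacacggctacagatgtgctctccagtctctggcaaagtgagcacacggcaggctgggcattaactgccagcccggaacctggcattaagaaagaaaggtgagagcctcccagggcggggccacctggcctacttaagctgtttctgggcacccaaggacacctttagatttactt
Ccl8: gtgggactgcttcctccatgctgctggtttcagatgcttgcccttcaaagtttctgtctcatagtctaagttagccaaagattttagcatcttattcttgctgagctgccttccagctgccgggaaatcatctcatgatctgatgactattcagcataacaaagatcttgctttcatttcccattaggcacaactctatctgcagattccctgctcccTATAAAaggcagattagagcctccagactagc
Ccl25: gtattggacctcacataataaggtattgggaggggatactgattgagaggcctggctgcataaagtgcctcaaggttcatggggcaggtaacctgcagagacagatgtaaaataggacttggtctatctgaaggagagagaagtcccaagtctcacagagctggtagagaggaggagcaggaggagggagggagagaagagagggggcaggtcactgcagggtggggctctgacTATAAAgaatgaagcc

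The matches did not overlap each other. The Ccl20 window held 1 match to the NF-kB consensus, GGAAAACCCC as read on the plus strand, at 80 to 71 bases before the start. A match to that motif was present in 7.25% of 32841 RefSeq windows of the same length. The Ccl8 window held TATAAA at 32 to 27 bases and the downstream Ccl25 window at 16 to 11 bases before the start, a motif found in 12.4% of all windows. The Ccl28 window and the upstream Ccl25 window, with 50.8% and 74.8% G and C, held no match to any of the 5 motifs. Matches to the ISRE core, TGANTCA and the p53 decamer, present in 2.98%, 6.75% and 7.13% of all windows, were absent from all 5 member windows. The letters of a motif are a description of these windows and not evidence of binding.

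Ccl2, Ccl7 and Ccl8 lie close together on chromosome 11, in a run of 6 CC chemokine genes whose order in the reference is Ccl2, Ccl7, Ccl11, Ccl12, Ccl8 and Ccl1. Of these, 5 were above 0 in control organoids and 2 in knockout organoids, and their TPM summed to 1119 and 1.05. Of all 25668 genes, 16094 were above 0 in control organoids and 14066 in knockout organoids, where fewer reads were recovered. Ccl11, eotaxin, was 6.85 TPM in control organoids and listed at 0 in knockout organoids. Against the floor of 3 reads it was 43.7-fold lower, and the exact interval begins at 35.4-fold. Ccl1 was 0.603 TPM in control organoids and listed at 0 in knockout organoids, and Ccl12 was listed at 0 in both. The neighbours of the run that have a row, 5530401A14Rik and Tmem132e, were listed at 0 in both libraries.

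Genes a little farther out were taken, after their values were seen, as the 6 nearest on each side. Of these 12 genes 7 had a mean of at least 1 TPM, 2 of them lower and 0 higher by 2-fold or more, beside 15.3% and 8.35% of all genes. The median difference of the 7 was −0.40. The lower ones were Asic2, an ion channel subunit, at 3.14 and 0.0133 TPM, and Rffl, a ubiquitin ligase, at 12.98 and 5.01 TPM, in control and knockout organoids. At its control level the difference of Asic2, −2.03 on the log2(TPM + 1) scale, could not have been as large as those of Ccl2 and Ccl7. Tmem98 and Myo1d, on the Ccl2 side, were 151 and 38.7 TPM in control organoids and 104 and 29.0 TPM in knockout organoids. Over all 953 genes of chromosome 11 at that minimum, 13.2% were at least 2-fold lower and the median difference was −0.17.

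Ccl5 lies elsewhere on chromosome 11, in a second run with Ccl9, Ccl6, Ccl3 and Ccl4. This run summed to 1.93 TPM in control organoids and 1.37 TPM in knockout organoids. Ccl9 was 0.749 and 0.263 TPM, a control to knockout ratio of 2.84 with an interval of 1.64 to 5.34. Ccl6 was 0.548 TPM from 47 reads and 0.0393 TPM from 1 read, a ratio of 13.97 with an interval of 2.39 to 563. Ccl3 and Ccl4, macrophage inflammatory proteins, were listed at 0 in both, as was Heatr9, the gene before Ccl5. Both runs were thus near 1 TPM in knockout organoids, while in control organoids that of Ccl2 was far above that of Ccl5.

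**Figure D3:**
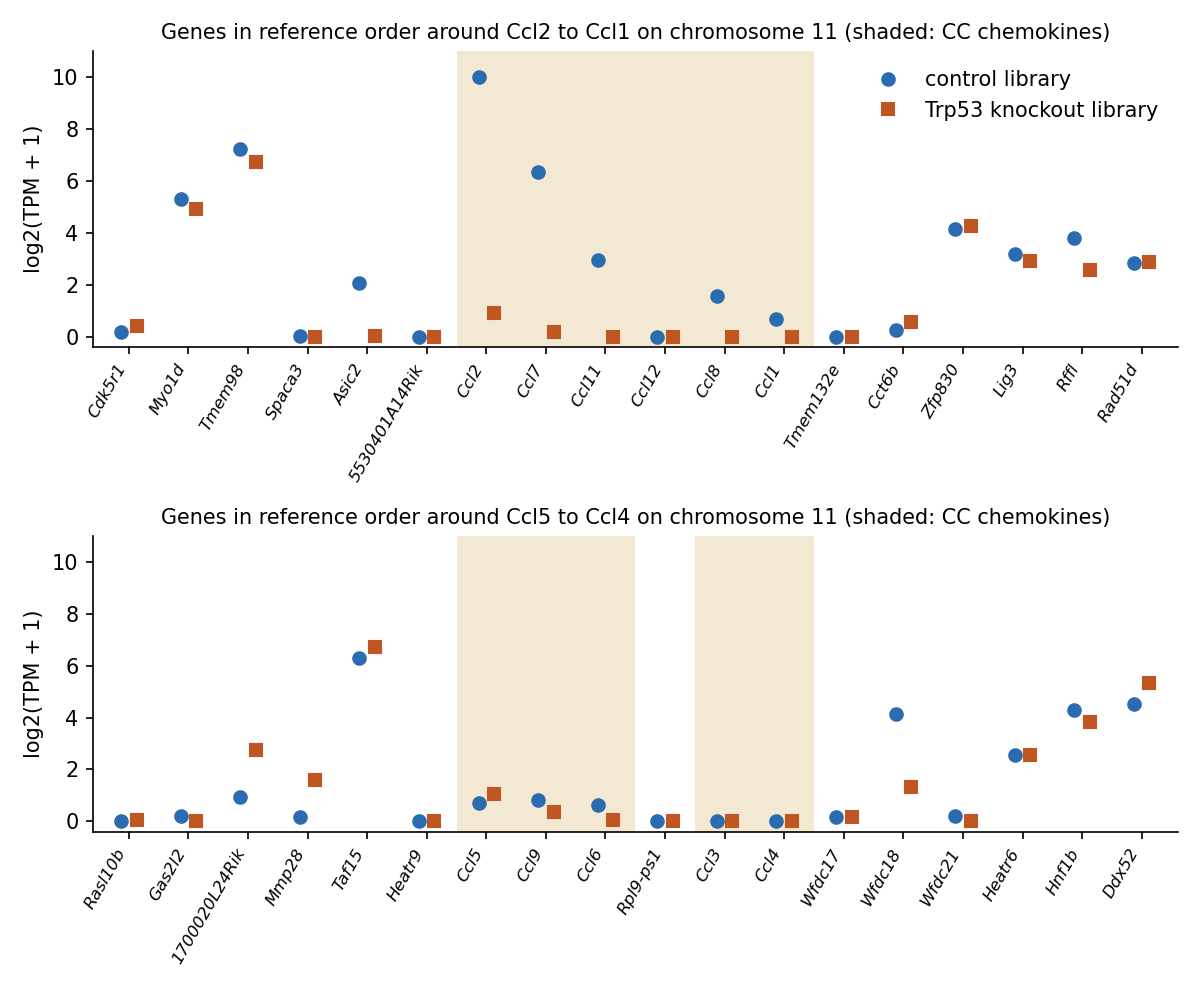
log2(TPM + 1) of genes in reference order around the run from Ccl2 to Ccl1 (upper panel) and the run from Ccl5 to Ccl4 (lower panel) on chromosome 11, with blue circles for the control and orange squares for the Trp53 knockout library and CC chemokines shaded. The difference between libraries is largest at Ccl2 (1030 and 0.904 TPM) and Ccl7 (79.9 and 0.141 TPM). The upper panel has 7 flanking genes at a mean of at least 1 TPM, with 2 beyond 2-fold downwards and 0 upwards, beside 15.3% and 8.35% of all genes. The 2 are Asic2 (3.14 and 0.0133 TPM) and Rffl (12.98 and 5.01 TPM). Tmem98 and Myo1d differ by −0.53 and −0.40. The lower panel also has 7 flanking genes at that minimum, with 1 beyond 2-fold downwards and 2 upwards and a median difference of 0.44.

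The other 3 genes are on separate chromosomes, Ccl20 on chromosome 1, Ccl25 on 8 and Ccl28 on 13. The genes beside Ccl20 were Krtap28-13, listed at 0 in both libraries, and Daw1, a factor of ciliary dynein assembly, at 0.835 TPM in control organoids and 0 in knockout organoids. Elavl1, the RNA-binding protein HuR, lies before Ccl25 and was 27.6 and 28.0 TPM, and Cers4 after it was 0.147 and 0.0297 TPM. Tmem267 before Ccl28 was 18.5 TPM in control organoids and 4.42 TPM in knockout organoids, while Hmgcs1 after it, an enzyme of cholesterol synthesis, was 206 and 286 TPM. The neighbours of Ccl20 were too low in control organoids to show a difference of the size of Ccl20. Tmem267 differed by −1.85 and Hmgcs1 by 0.47, against −5.54 for Ccl28, a size that the control level of Tmem267 does not allow.

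Beyond the 7, the CC chemokine family was at low levels. The files list 24 CC chemokine genes, of which 13 were above 0 in control organoids and 10 in knockout organoids, and 11 were listed at 0 in both. This stands beside 16094 and 14066 of all 25668 genes above 0, with fewer reads in knockout organoids. The 7 genes held 99.6% of the family's summed TPM in control organoids and 94.6% in knockout organoids. As the 7 were chosen with earlier results of these data known, these shares describe the choice and are not a separate result. Of the 17 others, 2 had a mean of at least 1 TPM, with 1 lower, Ccl11, and 0 higher by 2-fold or more, beside 15.3% and 8.35% of all genes. Ccl11 passed that minimum only through the control library. The other was Ccl27a, a skin chemokine and also a ligand of Ccr10, at 3.35 TPM in control organoids and 4.71 TPM in knockout organoids, a ratio of 1.40 with an interval of 1.05 to 1.86 from estimated reads. Ccl27a has a near-identical copy, Ccl27b, listed at 0 in both, so its value is uncertain.

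The receptors named here were at or near 0 in both libraries, apart from Ccrl2. Ccr2, Ccr6 and Ccr9, the receptors of Ccl2, Ccl20 and Ccl25, were listed at 0 in both libraries, which for Ccr6 allows up to 0.0287 TPM in control and 0.0966 TPM in knockout organoids, at 3 reads. Ccr10, the receptor of Ccl28, was 0.0487 TPM from 5 reads and 0.295 TPM from 9 reads, a knockout to control ratio of 6.06 with an interval of 1.82 to 23.01. Of 15 receptor genes, 14 were below 1 TPM in both libraries. The exception was Ccrl2, a receptor that binds the attractant chemerin without signalling, at 2.52 TPM in control organoids and 0.762 TPM in knockout organoids. Ccrl2 had a control to knockout ratio of 3.31 with an interval of 2.32 to 4.90, from estimated reads. Its difference of −0.9994 lay just inside the 2-fold limit and passed it with a pseudocount of 0.1 and without the mitochondrially encoded and the 100 highest genes.

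In mRNA level, the genes of the NF-kB system showed differences far smaller than those of Ccl2, Ccl7, Ccl20 and Ccl28. Of the 16 NF-kB subunits, kinases and inhibitors, 2 were at least 2-fold lower and 0 higher, beside 15.3% and 8.35% of all genes, with a median of −0.29. The 2 were the inhibitors Nfkbie, at 12.5 and 5.46 TPM, and Tnfaip3, at 10.3 and 4.59 TPM, both just past the limit and inside it after rescaling by the median ratio, after quantile normalization or with a pseudocount of 5. Ikbkg, the regulatory subunit of the IkB kinase, was 12.2 and 6.45 TPM, and Tnip1, a partner of Tnfaip3, was 28.6 and 18.8 TPM. The subunit Rela, chosen after its values were seen, was 29.8 and 30.5 TPM. NF-kB activity was not measured, and its part in the chemokine values was not tested.

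Receptors and adaptors of inflammatory signals, most of which act through NF-kB, had 2 of 22 members lower and 1 higher by 2-fold or more, around a median of −0.28, beside 15.3% and 8.35% of all genes. Il6st, the chain of the interleukin 6 receptor that signals through Jak kinases and Stat3, was 67.1 TPM in control organoids and 7.004 TPM in knockout organoids, and Tlr2, which senses bacterial lipoproteins, was 5.16 and 1.48 TPM. Tnfrsf1b, a receptor of tumour necrosis factor, was higher, at 2.46 and 10.1 TPM. Traf2, an adaptor of such receptors, was 10.7 and 21.99 TPM, just inside the 2-fold limit on the log2(TPM + 1) scale. Other receptor genes of tumour necrosis factor, interleukin 1 and interleukin 17 were chosen after their values were seen. Tnfrsf1a was 99.3 and 53.3 TPM, Il1r1 2.30 and 1.83 TPM and Il17ra 3.52 and 2.55 TPM. Il1rap was 1.74 and 0.515 TPM and Il17rc 37.2 and 56.0 TPM. The part of these receptors in the chemokine values was not tested.

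The interferon chain, which acts on Ccl5, Ccl7 and Ccl8 in other cells, had differences in both directions. Of 18 genes at the minimum, 2 were lower and 4 higher by 2-fold or more, around a median of −0.0352, beside 15.3% and 8.35% of all genes. Irf7, a factor of the interferon response, was 2.47 TPM in control organoids and 17.98 TPM in knockout organoids, and Irf9, a subunit of the interferon-activated factor, was 7.47 and 22.8 TPM. The other higher genes were Stat2, at 1.87 and 5.48 TPM, and the kinase gene Jak1, at 12.9 and 27.6 TPM. Il10rb, a receptor chain of interferon lambda and interleukin 10, was 71.0 and 19.7 TPM, and Jak2 was 56.0 and 17.2 TPM. Under quantile normalization, and without the mitochondrially encoded and 100 highest genes, 7 members were higher, beside 11.5% and 9.26% of all genes under these settings.

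Genes that act on chemokine mRNA or on the secreted proteins were also examined. Of 15 regulators of mRNA decay, 1 was lower and 0 higher by 2-fold or more, around a median of 0.0070, beside 15.3% and 8.35% of all genes. The lower one was Zfp36, tristetraprolin, which speeds the decay of cytokine mRNA, at 241 and 91.1 TPM. Arid5a, which stabilises such mRNA, was 2.02 and 4.49 TPM, and the decay factors Zc3h12c and Rc3h1 were 2.64 and 6.17 TPM in control organoids and 1.35 and 3.92 TPM in knockout organoids.

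Proteases that cut chemokines and the heparan sulfate genes that hold them at cell surfaces had 3 of 16 members lower and 3 higher by 2-fold or more, around a median of −0.0297, beside 15.3% and 8.35% of all genes. Mmp7, matrilysin, was 3149 TPM in control organoids and 180 TPM in knockout organoids. Dpp4, which trims the first residues of several chemokines, was 7.26 TPM and 0.0107 TPM, the latter from 1 read, a ratio of 677 with an interval of 121 to 26737. Sdc2, a heparan sulfate proteoglycan, was 13.7 and 0.0160 TPM, also from 1 read in knockout organoids. Mmp14, a membrane protease, was higher, at 3.36 and 54.5 TPM, as were Sdc1, at 68.1 and 378 TPM, and Gpc1, at 1.15 and 5.16 TPM.

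**Figure D4:**
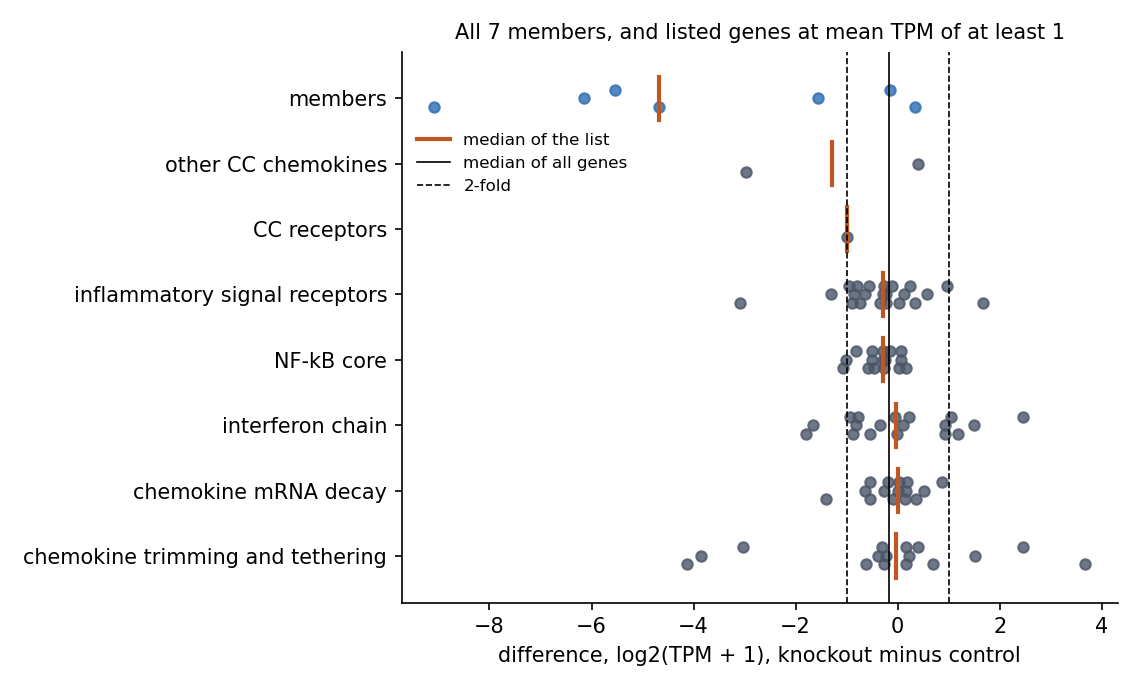
Difference in log2(TPM + 1), knockout minus control, for all 7 CC chemokines and for the genes of 7 other lists at a mean of at least 1 TPM, with each list's median as an orange bar, the median of all genes as a solid line and 2-fold as dashed lines. Of the genes shown, Ccl2 (−9.08), Ccl7 (−6.15), Ccl28 (−5.54) and Ccl20 (−4.69) lie farthest to the left, and the medians of the NF-kB, inflammatory receptor, interferon, mRNA decay and trimming lists lie between −0.29 and 0.0070.

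Markers of the labelled epithelium were present in both libraries. Epcam was 713 and 697 TPM, Krt8 1984 and 1554 TPM and Pax8, the secretory cell factor, 44.8 and 46.0 TPM. Of 14 epithelial markers, 4 (Ovgp1, Wt1, Sox17 and Foxj1) were at least 2-fold lower and 2 (Krt19 and Cldn3) higher, beside 15.3% and 8.35% of all genes. Ovgp1, the oviductal glycoprotein, was 7.44 TPM in control organoids and 0.192 TPM in knockout organoids, Wt1 35.3 and 7.85 TPM and Sox17 86.5 and 22.5 TPM. The summed level of the 14 was 10262 and 15231 TPM, and Krt19 alone, at 2313 and 8176 TPM, had a larger difference than the sum. The part of such shifts within the epithelium in the chemokine values was not tested.

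Markers of cells that are known sources of Ccl2, Ccl5, Ccl7 and Ccl8 were at or near 0, apart from a few genes. Of 16 macrophage and monocyte markers, 12 were below 1 TPM in both libraries, C1qa, C1qb, C1qc and Tyrobp were listed at 0 in both, and Ptprc, the leukocyte antigen CD45, was 0.0886 and 0.0110 TPM. The list's summed level was 879 TPM in control organoids and 194 TPM in knockout organoids, nearly all of it from Cd14, at 588 and 177 TPM, Lyz2, at 257 and 0 TPM, Cd68, at 25.5 and 15.97 TPM, and Csf1r, at 8.78 and 0.420 TPM. These 4 genes were lower in knockout organoids, as Ccl2 was, and their part in the result was not tested. Of 16 T, natural killer and B cell markers 13 were listed at 0 in both libraries, and the list's sum of 33.7 and 18.6 TPM came almost wholly from Cd79b. Of 14 fibroblast and stromal markers 13 were below 1 TPM in both libraries, with Col1a1 at 0.0085 and 0 TPM, and the sum was 1.20 and 17.9 TPM, mostly from Acta2. Of 12 endothelial markers 10 were below 1 TPM in both, with a sum of 7.29 and 9.13 TPM.

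**Figure D5:**
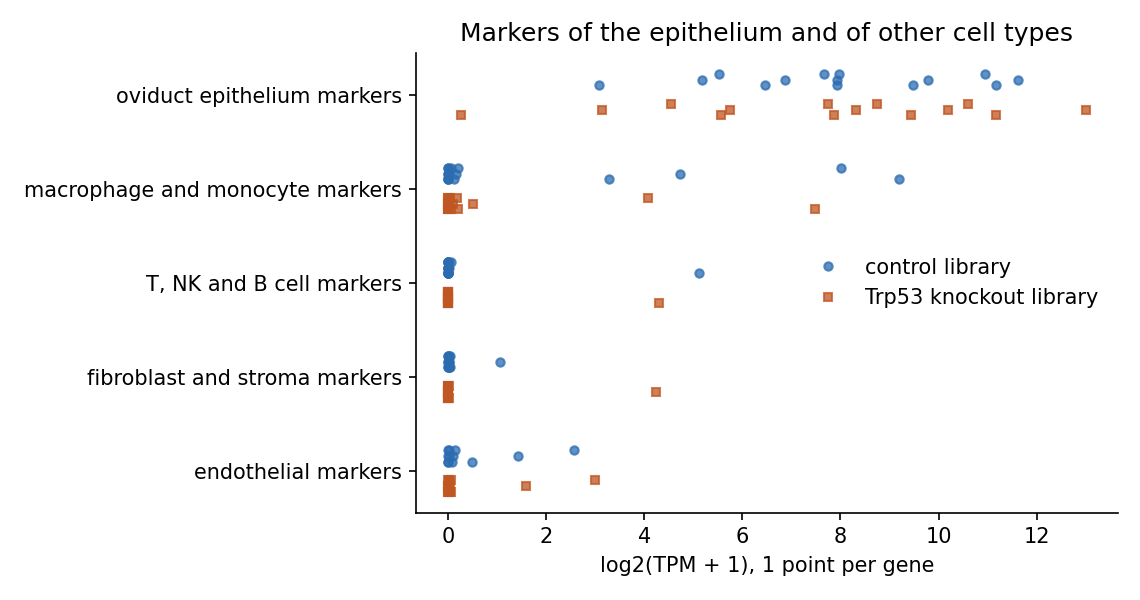
log2(TPM + 1) of each marker gene of the oviduct epithelium and of 4 groups of other cell types, with blue circles for the control and orange squares for the Trp53 knockout library. The epithelial markers stand at 7.44 TPM or more in control organoids and reach down to 0.192 TPM (Ovgp1) in knockout organoids, while the markers of other cells sit at or near 0 apart from a few genes such as Cd14, Lyz2, Cd79b and Acta2.

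Genes at a mean of at least 5 TPM were searched for levels near those of Ccl20, Ccl2 and Ccl28. Predicted genes, unnamed clones, pseudogenes and mitochondrially encoded genes were left out. The nearest were read as the 3 with the smallest straight-line distance over the 2 libraries on the log2(TPM + 1) scale. For Ccl20 these were C3, complement component 3 (2231 and 124 TPM, distance 0.58), Lbp, which binds bacterial lipopolysaccharide (1374 and 61.8 TPM, 0.77), and Tmem176a (1379 and 115 TPM, 0.80). For Ccl28 they were Ldhb, a lactate dehydrogenase subunit (462 and 7.92 TPM, 0.64), S100g, a calcium-binding protein (301 and 3.42 TPM, 0.65), and Cfi, complement factor I (232 and 2.47 TPM, 1.10). Among the genes searched, Ccl2 had none as near: the closest were Cyba (541 and 2.36 TPM, 1.24) and Cyp2f2 (327 and 2.18 TPM, 1.81). With 2 libraries a distance describes 2 levels and no more.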

How the data were processed

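RNA of 1 control and 1 Trp53 knockout organoid library was sequenced as strand-preserving paired-end libraries, per the labels' protocols. The authors deposited TPM for 25668 gene symbols per library. Per the submitters' processing notes the build was GRCm39. The sources used here name no aligner, counting tool or annotation. The 7 members and all gene lists were chosen with earlier results of these data known.

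Differences are log2(TPM + 1), knockout minus control. Calls are at least 2-fold at a mean of at least 1 TPM, a description of 2 libraries and not a test. The named genes are Trp53, the 7 members, the family and receptor genes at 1 TPM or more in either library and the members' receptors, up to 4 genes per other list by size of difference, the neighbours of each member and the 3 nearest genes to the 3 highest members. Genes outside this rule, among them Ccl1, Ccl6, Ccl9, Epcam, Krt8, Pax8 and the marker genes given at or near 0, were picked with their values known. A few genes that the rule takes do not appear, as they are not reported here.

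Read numbers were recovered from TPM times length. The TPM of 1 read is the constant that makes most products whole, with the longest protein-coding transcript of GENCODE M21 as length. Of 10224 genes with over 50 reads in both libraries, 30.9% were within 0.02 of whole numbers in both, against 0.16% by chance, though the same genes set the constant. Where that length gave no whole numbers, a single length within 2% of it that did was taken, and otherwise the reads are estimates. Reads of 6 members were recovered and those of Ccl25 estimated. Ratios have exact Clopper-Pearson intervals and single levels exact Poisson intervals, at 95%. A gene at 0 is bounded with 3 reads. The 2-fold calls, the TPM of 1 read and the intervals of ratios were tested on simulated reads with known lengths. The search for a length and the estimated reads were not tested in this way. Python 3.11.15, numpy 2.4.6, scipy 1.17.1 and matplotlib 3.10.9 were used.

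As alternatives, the pseudocount was set to 0.1 or 5, the minimum was dropped or raised to a mean of 5 TPM, values were rescaled by the median ratio or quantile-normalized, mitochondrially encoded and the 100 highest genes were removed, and the limit was set to 4-fold.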

Additional observations from a re-analysis of the deposited data

How the results depend on the processing

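Of the 7 genes, 4 were at least 2-fold lower under 6 of the 8 alternatives, and 5 with no minimum and without the mitochondrially encoded and 100 highest genes, while 0 were higher under any. The number with a lower value of any size was 6, and 5 under quantile normalization, where Ccl25 turned to 0.29. The differences of Ccl2 ran from −10.0 to −7.45, of Ccl7 from −8.37 to −4.05, of Ccl20 from −4.77 to −4.51 and of Ccl28 from −5.74 to −4.90. The median over the 7, −4.69, was −4.05 with a pseudocount of 5, −4.51 after rescaling by the median ratio and −4.77 after quantile normalization, and the knockout sum was 2.57% of the control sum, or 2.91% after rescaling. Over all genes, 1715 lower and 937 higher became 930 and 563 with a pseudocount of 5 and 661 and 267 at 4-fold, and 1091 lower at a mean of at least 5 TPM. The shares of all genes were 11.8% lower and 11.5% higher with quantile normalization. Without the mitochondrially encoded and 100 highest genes they were 17.2% and 9.26%. A pseudocount of 0.1 gave 18.3% and 9.62%, and a pseudocount of 5 gave 8.28% and 5.01%. Rescaling by the median ratio gave 12.9% and 10.6%, and a mean of at least 5 TPM 12.9% and 8.34%. At 4-fold the shares were 5.89% and 2.38%. The counts below are small, and the cause of their moves was not tested. Other CC chemokines had 1 lower, and 0 at a mean of at least 5 TPM, which Ccl11 does not reach. CC receptors had 0 lower, and 1 with a pseudocount of 0.1 or without the mitochondrially encoded and 100 highest genes. Inflammatory signal receptors had 2 lower, 5 with a pseudocount of 0.1, and 1 with a pseudocount of 5, a mean of at least 5 TPM, quantile normalization or 4-fold. They had 1 higher, 2 with a pseudocount of 0.1, rescaling or quantile normalization, 3 without the mitochondrially encoded and 100 highest genes, and 0 at 4-fold. NF-kB genes had 2 lower, and 0 with a pseudocount of 5, rescaling, quantile normalization or 4-fold. The interferon chain had 2 lower and 0 at 4-fold, and 4 higher, 2 with a pseudocount of 5, 7 with quantile normalization or without the mitochondrially encoded and 100 highest genes, and 1 at 4-fold. The mRNA decay genes had 1 lower and 0 at 4-fold, and 0 higher, 1 with a pseudocount of 0.1, rescaling or quantile normalization. No paired analysis was possible because each group has 1 library, and for the same reason no library could be left out. Depth limits Ccl5 and the knockout values of Ccl2, Ccl7 and Ccl8, which rest on 20 reads or fewer.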
